A study of Mus musculus with 16 samples.

Results

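Genes were followed along mouse chromosome 8 in their order from the centromeric end, as the RefSeq annotation gives it. The array carried probes for 804 genes of this chromosome, and 511 of them passed the detection rule, of 9300 genes that passed it in all. A gene was kept when, in at least 2 of the 8 lines, a probe had a detection p-value below 0.05 on each array, and its brightest such probe stood for it. The chromosome was chosen by measured values, because 1 of the 8 lines, S113 clone 5, was low along it when set against the SWT mean. Values of that line on this chromosome are therefore given as a description with no test.

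Mouse chromosomes are telocentric, so gene order runs from the centromere at the proximal end to the telomere at the distal end. Neighbouring genes on a chromosome mostly have unrelated roles, and chromosome 8 holds genes for basic cell functions, for early development and for the basement membrane. Gain of a whole chromosome 8 is a recurrent change in cultured mouse ESCs. DNA was not measured here, and the arrays report RNA only.

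The lines were Sox2-null ESCs of 129/Ola origin that carry a mouse *Sox2* transgene, which doxycycline turns off, and a DsRed reporter. Each construct encodes human SOX2 in a PiggyBac vector with hygromycin resistance and a CAG promoter, and each line is 1 clone grown in doxycycline at 1 μg/mL and hygromycin at 300 μg/mL. S95 (clones 1, 2 and 4) carries mutations in the surface used on *Utf1*-like motifs, S113 (clones 4 and 5) carries a mutation in the surface used on *Fgf4*-like motifs, and SWT (clones 4 and 5) carries the wild-type protein. The labels name the first construct only as a *Sox2* 95 mutant. The study describes a pair of mutants of that surface, neither named in just this way, and the S95 clones were taken as the mutant whose lines could be grown, of which the study profiled 3. As the study describes that mutant, its changes lie at residues other than 95, so S95 is used here only as the label. The last line, TSS, has no doxycycline and keeps the mouse transgene on. Each line had 2 arrays, which the labels do not tie to separate cultures, so p-values measure the spread between clones. Over the 16 arrays the median intensity lay between 100.1 and 117.2, between 48.6% and 52.5% of the probes were detected, and the 2 arrays of a line correlated across genes with r between 0.9942 and 0.9976. All 7 ESC markers examined were detected on every array. The summed log2 level of these 7 was 77.1, 67 and 76.6 in S95 clones 1, 2 and 4. It was 81.05 and 81.36 in S113 clones 4 and 5, 80.83 and 82.16 in the SWT clones, and 83.4 in TSS. Of 5 trophectoderm markers, *Krt8* and *Krt18* were detected on all 16 arrays, *Cdx2* on 11, and *Hand1* and *Elf5* on none. Their summed log2 level was 34.83 to 37.84 in the S95 clones, 30.14 and 31.26 in S113 clones 4 and 5, and 25.37 and 25.91 in the SWT clones. In TSS, which has no mutant construct, it was 32.44. *Krt8* was at 10.38 in S113 clone 5, 9.23 in S113 clone 4, 9.65 in TSS, and 6.78 and 8.20 in SWT. *Cdx2* was lower in S113 clone 5 (4.84) than in S113 clone 4 (5.25) and TSS (5.93). Of 5 fibroblast markers, *Thy1* and *Vim* were detected on all 16 arrays, *Twist1* on 14, *Col1a1* on 10 and *Col1a2* on 4, the last pair on neither array of S113 clone 5, and their sum was 27.89 to 30.94 in the S95 clones, 29.09 and 28.48 in S113 clones 4 and 5, and 29.32 to 30 in SWT. The part of these markers in the results was not tested.

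Of the 293 chromosome 8 genes that were not kept, 186 had no probe detected on any array. The 20 members just inside the detection rule, detected on both arrays of exactly 2 lines, had levels averaged over all arrays of 4.48 to 4.87 (log2), and the 38 genes just outside it, with exactly 1 such line, had levels of 4.38 to 4.73. Detection on both arrays of all 8 lines was found for 401 of the 511 members. Those detected in few lines could pass only through lines in which they were high.

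The promoter windows of 3 members are shown because the first 2, *Col4a2* and *Col4a1*, held the largest rises in S95 on the chromosome and lie on opposite strands with windows that overlap by 78 bases, and because *Zfp42*, an ESC marker that fell in S95, has an octamer. Windows run from 250 bases before to 50 bases after the start in RefSeq (GRCm38.p6) and were found for 359 of the 511 members. Capitals mark the octamer ATGCAAAT, known as a binding motif of OCT4, and its reverse complement ATTTGCAT. The motifs ACAATG, a core of SOX binding sites, and TATAAA were also searched on both strands, and none of the 3 windows holds either of them.
*Col4a2* (chr8:11312555-11312854, plus strand): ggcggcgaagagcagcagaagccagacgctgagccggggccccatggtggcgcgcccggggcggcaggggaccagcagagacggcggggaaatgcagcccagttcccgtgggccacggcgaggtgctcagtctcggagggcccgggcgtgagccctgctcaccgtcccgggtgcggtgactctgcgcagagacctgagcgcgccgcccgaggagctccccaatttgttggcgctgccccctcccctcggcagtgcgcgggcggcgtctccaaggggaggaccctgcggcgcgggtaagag
*Col4a1* (chr8:11312777-11313076, minus strand): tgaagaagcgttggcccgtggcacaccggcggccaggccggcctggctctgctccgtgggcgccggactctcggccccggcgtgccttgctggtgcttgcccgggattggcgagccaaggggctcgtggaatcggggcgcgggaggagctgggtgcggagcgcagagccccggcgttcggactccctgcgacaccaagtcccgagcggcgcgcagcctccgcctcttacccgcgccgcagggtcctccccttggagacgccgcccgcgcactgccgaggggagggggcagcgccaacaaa
*Zfp42* (chr8:43306960-43307259, minus strand): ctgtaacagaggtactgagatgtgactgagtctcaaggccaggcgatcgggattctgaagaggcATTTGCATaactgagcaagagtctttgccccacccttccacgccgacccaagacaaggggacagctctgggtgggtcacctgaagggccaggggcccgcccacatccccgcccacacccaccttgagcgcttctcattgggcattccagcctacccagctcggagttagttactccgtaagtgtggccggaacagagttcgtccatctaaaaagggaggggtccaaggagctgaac
The octamer was found in 1.84% of 381 windows of genes distal to the step described next, in 1.72% of 58 proximal windows and in 1.74% of all 32851 windows of the table. The shares with ACAATG were 9.71% of distal, 3.45% of proximal and 12.57% of all windows, and the shares with TATAAA were 7.87%, 13.79% and 13.62% of the same sets. A match is a stretch of letters and not a measured binding site.

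S113 clone 5 was low along most of the chromosome but not at its proximal end. Over all 511 genes the median log2 difference of S113 clone 5 from the SWT mean was -0.29, with the middle part of the genes between -0.56 and -0.02 (quartiles), and 392 genes (76.7%) were below SWT. A single break that leaves the smallest sum of absolute deviations fell after gene 108, between *Dlc1* and *Cnot7*, which encodes a deadenylase of the CCR4-NOT complex. It fell between the same genes in 15 of 15 profiles, made from the line and from each of its arrays against 5 references, among them each SWT clone and S113 clone 4. The break was found on these values, so the values on its sides are a description. The 403 distal genes had a median of -0.37 (0.774-fold), and the 108 proximal genes had a median of -0.05 (0.964-fold). The 2 arrays of S113 clone 5 gave -0.37 and -0.36 for the distal genes, and -0.02 and -0.05 for the proximal genes. Of the distal genes 331 (82.1%) were below SWT, against 56.5% of the proximal genes and 48.4% of the genes on other chromosomes. A difference of -0.5 or less was found for 33.3% of the distal genes, against 10.2% of the proximal genes and 8.7% of those on other chromosomes.

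**Figure D1:**
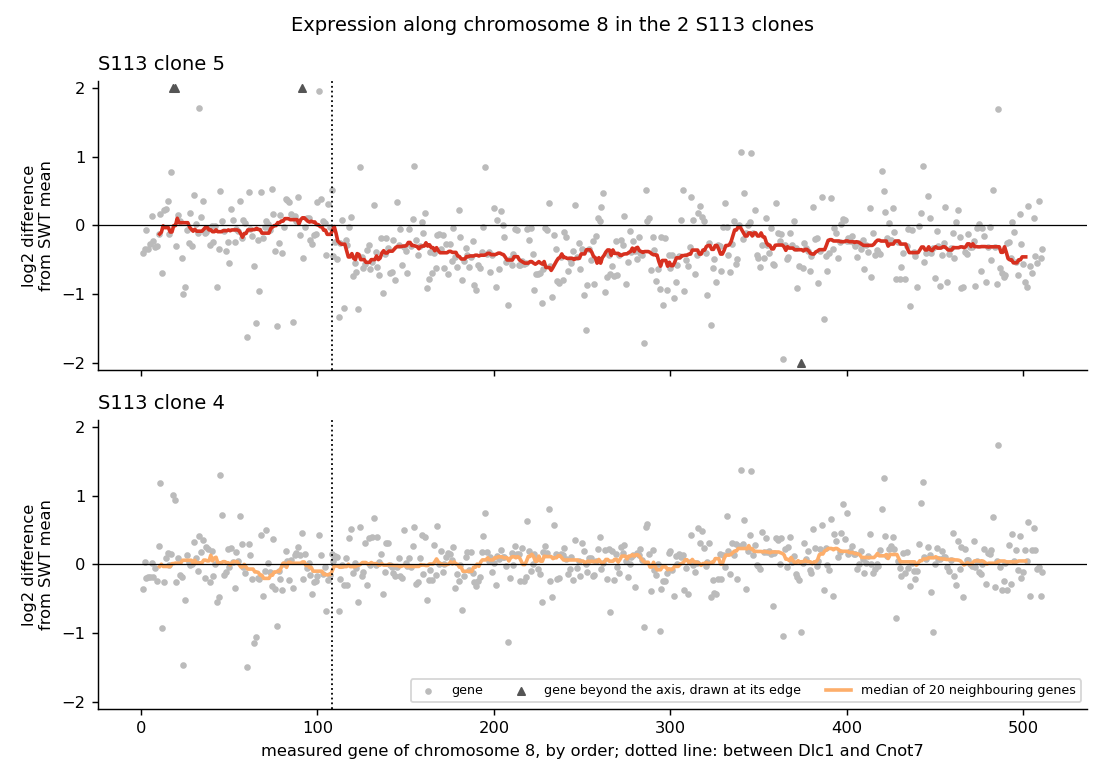
Log2 difference from the SWT mean (vertical axis) for the 511 measured genes of chromosome 8 in their order (horizontal axis), in S113 clone 5 (top) and S113 clone 4 (bottom). Grey points are genes, dark triangles are genes beyond the axis drawn at its edge, the coloured line is the median of 20 neighbouring genes, and the dotted line lies between *Dlc1* and *Cnot7*. The coloured line for S113 clone 5 stays below 0 at every place past the dotted line. That for S113 clone 4 lies between -0.20 and 0.13 before the dotted line and between -0.10 and 0.27 past it.

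The low level ran through the whole distal stretch. Among its 384 runs of 20 neighbouring genes, all had a median below 0 in S113 clone 5, from -0.65 (the run from *Ttc29* to *Adgrl1*) to -0.02 (the run from *Tk2* to *Ripor1*). In S113 clone 4, 68 of the same 384 runs were below 0, and they ranged from -0.10 to 0.27. The 89 proximal runs lay between -0.17 and 0.11 in S113 clone 5 and between -0.20 and 0.13 in S113 clone 4. Cut into pieces of 10 Mb, the first 4 pieces had medians of -0.18, -0.06, -0.04 and 0.05 in S113 clone 5, and the other 9 had medians between -0.47 and -0.27. The run from *Tk2* to *Ripor1*, the nearest to 0, lies where S113 clone 4 and the S95 clones were above SWT, and when set against S113 clone 4 the distal runs of S113 clone 5 ranged from -0.59 to -0.25.

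Single genes at the step varied on each side of it. The 6 genes just before it had differences of 0.06, 0.04, -0.42, 0.32, -0.02 and 0.51 in S113 clone 5, and the 6 just past it had -0.45, -0.25, -0.49, -1.33, -0.26 and 0.07. *Prag1*, the proximal gene at -0.42, read 4.67 and 4.81 (log2) in S113 clone 5, 4.55 and 4.43 in S113 clone 4, and 5.24, 4.69, 5.48 and 5.26 in SWT. Its arrays lay below all SWT arrays in S113 clone 4 and overlapped with SWT in S113 clone 5. *Lonrf1*, also proximal, read 7.05 and 6.88 on the arrays of S113 clone 5, 6.63 and 6.23 on those of S113 clone 4, and 6.59, 6.45, 6.99 and 6.58 on the 4 SWT arrays. *Dlc1* read 4.85 and 5.20 in S113 clone 5, above the arrays of every other line, against 4.77, 4.27, 4.55 and 4.49 in SWT. The lowest signal among detected probes was 4.72 to 4.74 on the SWT arrays, and 4.66 and 4.68 on those of S113 clone 5. It was 4.65 and 4.73 in S113 clone 4, so *Prag1* and *Dlc1* were read near this floor. Past the step, *Cnot7* read 10.01 and 10.01 in S113 clone 5, 10.53 and 10.48 in S113 clone 4, and 10.54, 10.41, 10.53 and 10.36 in SWT. *Mtus1*, which encodes a microtubule-associated protein, read 6.46 and 6.51 in S113 clone 5, 7.19 and 6.97 in S113 clone 4, and 6.96, 6.70, 7.02 and 7.25 in SWT. The S113 clone 5 arrays of *Cnot7* and *Mtus1* lay below all SWT arrays and below both arrays of S113 clone 4, and those of *Lonrf1* overlapped with SWT. *Frg1*, also past the step, read 5.17 and 4.91 in S113 clone 5 and 4.72, 4.66, 5.19 and 5.30 in SWT, so the step was not seen in this gene. *Frg1* too was read near the floor.

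Dim genes showed less of the difference. With genes sorted into 4 equal groups by their SWT level over the chromosome, distal genes of the dimmest group (levels of 4.21 to 5.71) had a median of -0.08 in S113 clone 5, and those of the 3 brighter groups had medians of -0.47, -0.43 and -0.39. In the brightest group 93.1% of the distal genes were below SWT, against 60.6% in the dimmest. The SWT level that sorted the genes is also the reference, and S113 clone 4 itself had a median of 0.13 in the dimmest distal group. Set against S113 clone 4, the distal genes of S113 clone 5 had medians of -0.17, -0.48, -0.51 and -0.45, from the dimmest group to the brightest. The offset of 16 added to the intensities before the log compresses differences at low levels, and its part in this pattern was not tested. Among the proximal genes the 4 groups had medians of 0.02, -0.07, -0.16 and -0.06. For 94 distal genes with further kept probes, those 128 probes had a median of -0.40 in S113 clone 5, and 40 further probes of 25 proximal genes had a median of -0.04.

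No other line had a median as low. The median log2 difference from the SWT mean over all of chromosome 8 was 0.01, -0.05 and 0.04 in S95 clones 1, 2 and 4, 0.04 in S113 clone 4 and -0.07 in TSS, and SWT clone 4 minus SWT clone 5 was -0.02. Over the distal genes alone S113 clone 4 had a median of 0.06 and TSS of -0.07. Set against single lines in place of SWT, the distal genes of S113 clone 5 had medians of -0.39, -0.30 and -0.38 against S95 clones 1, 2 and 4, of -0.41 against S113 clone 4 and of -0.28 against TSS. The same medians over the proximal genes lay between -0.03 and 0.06. Within S113 clone 5 the median of chromosome 8 was the lowest of 20 chromosomes, and those of the other 19 lay between -0.06 (the X chromosome) and 0.05 (chromosome 5). In TSS chromosome 8 was also the lowest of 20, at -0.07 against -0.05 for chromosome 13, the next lowest. In S95 clones 1 and 4 the lowest chromosome was 14, with medians of -0.36 and -0.33. With these arrays a lower number of copies of the distal stretch in some or all cells and a lower level of RNA from each copy cannot be told apart.

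**Figure D2:**
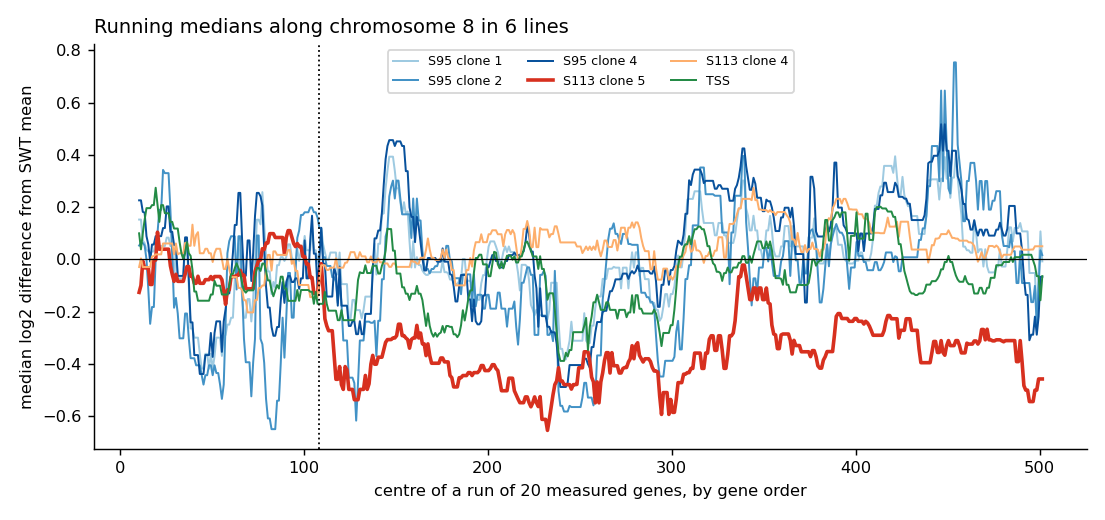
Median log2 difference from the SWT mean over runs of 20 neighbouring genes (vertical axis) by the place of the run in gene order (horizontal axis), 1 line for each of 6 lines. The dotted line lies between *Dlc1* and *Cnot7*. S113 clone 5 lies between -0.17 and 0.11 before the dotted line and between -0.65 and -0.02 past it, and S95 clone 2 swings most, from -0.65 to 0.75.

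**Figure D3:**
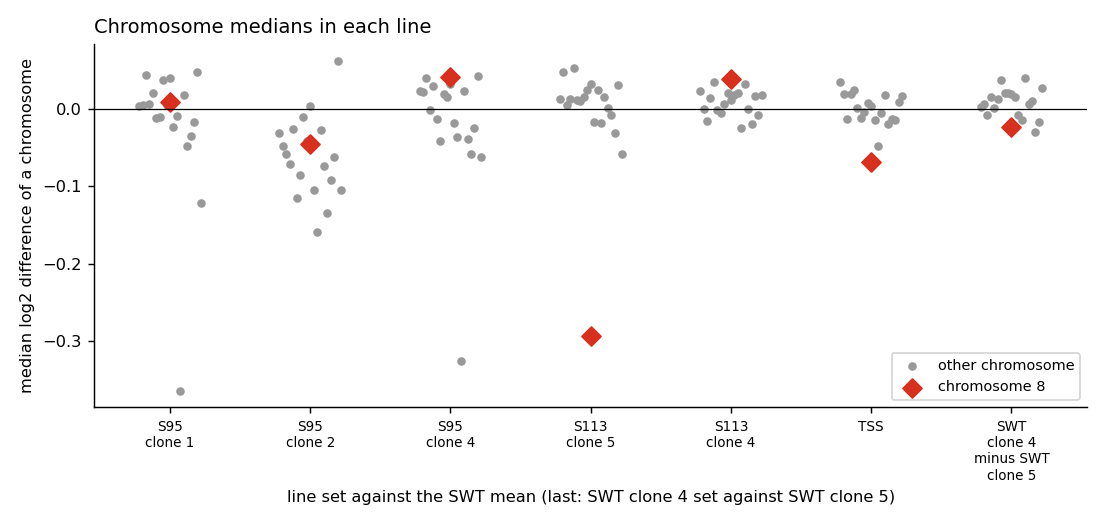
Median log2 difference of the genes of each chromosome from the SWT mean (vertical axis) in each line (horizontal axis), with chromosome 8 as a red diamond and the other 19 chromosomes as grey points. The last column sets SWT clone 4 against SWT clone 5. Chromosome 8 of S113 clone 5, at -0.29, lies apart from its other chromosomes, as does chromosome 14 of S95 clones 1 and 4, at -0.36 and -0.33.

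For single genes, S113 clone 5 was the lowest of the 8 lines in 168 of 403 distal genes (41.7%), in 10 of 108 proximal genes (9.3%) and in 7.3% of the genes on other chromosomes. Both of its arrays lay below the 14 arrays of the other lines in 106 genes of chromosome 8 (20.7%), 4 of them proximal, and in 3.04% of all 9300 genes. Both lay above the other 14 in 3 genes of chromosome 8, and in 2.9% of all genes. These 3 were *Mak16* (gene 89 in order) and *Dlc1* (gene 108, the last before the step), both proximal, and *Plvap*, past the step. The distal ones among the 106 had a median difference of -0.53 in S113 clone 5 and of 0.01 in S113 clone 4. The chromosome was chosen by this contrast, so nothing is read from these shares beyond the order of the lines.

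The 8 gene lists are described one after another, and no test compares them. Most listed genes are distal, so the distal median of each list stands beside the -0.37 of all 403 distal genes, of which 82.1% were below SWT. All 16 measured genes of mitochondria and metabolism were below SWT in S113 clone 5, and the 15 distal ones had a median of -0.45. They ranged from -1.36 for *Nqo1* to -0.07 for *Vdac3*. *Prdx2*, a peroxiredoxin that removes peroxides, read 11.83 and 11.80 in S113 clone 5, 12.26 and 12.39 in S113 clone 4, and 12.43, 12.63, 12.56 and 12.61 in SWT. Its 6 S95 arrays lay between 12.30 and 12.80 with a median of 12.42, so both S113 clone 5 arrays were below all the others. *Cox4i1*, a subunit of cytochrome c oxidase, read 13.06 and 13.00 in S113 clone 5, 13.43 and 13.36 in S113 clone 4, 13.30 and 13.37 in TSS, and 13.34, 13.23, 13.23 and 13.33 in SWT. *Got2*, the mitochondrial aspartate aminotransferase, read 12.95 and 12.88 in S113 clone 5, 13.26 and 13.47 in S113 clone 4, and 13.30, 13.21, 13.25 and 13.07 in SWT. In these 3 genes the S113 clone 5 arrays did not overlap with those of any other line, and the differences from the SWT mean were -0.74, -0.25 and -0.30. *Nqo1*, a quinone reductase, read 5.76 and 6.20 in S113 clone 5, 6.95 and 6.97 in S113 clone 4, and 7.22, 7.22, 7.47 and 7.44 in SWT, but it also read 6.28 and 6.08 in S95 clone 2.

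Of 13 measured genes of chromatin and RNA, 12 were below SWT in S113 clone 5, and the 11 distal ones had a median of -0.48. *Cbfb*, the partner subunit of the RUNX transcription factors, read 10.56 and 10.67 in S113 clone 5, 11.03 and 10.73 in S113 clone 4, and 11.19, 11.04, 11.19 and 10.97 in SWT. *Prmt7*, an arginine methyltransferase, read 11.60 and 11.66 in S113 clone 5, 12.46 and 12.25 in S113 clone 4, and 12.63, 12.54, 12.61 and 12.39 in SWT. The arrays of S113 clone 5 lay below all SWT and S113 clone 4 arrays for both genes, and for *Prmt7* S95 clone 2 was lower still, at 11.44 and 11.26. *Nudt21*, a subunit of the cleavage factor that selects poly(A) sites, had a difference of -0.94 in S113 clone 5 and of -0.12 in S113 clone 4, and *Taf5l* had -0.75 and -0.24 in the same clones.

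Of 15 measured genes of DNA replication and repair, 13 were below SWT in S113 clone 5, and the 11 distal ones had a median of -0.41. *Cdt1*, which loads the replicative helicase, read 11.47 and 11.62 in S113 clone 5, 11.96 and 12.08 in S113 clone 4, and 12.08, 11.76, 12.01 and 11.99 in SWT. *Terf2*, a telomere-binding protein of the shelterin complex, read 7.33 and 7.39 in S113 clone 5, 8.33 and 8.18 in S113 clone 4, and 8.27, 8.24, 8.04 and 8.27 in SWT. *Mcm5*, a subunit of the helicase itself, had a smaller difference of -0.21. *Tfdp1*, a partner of the E2F factors that lies proximal to the step, read 10.49 and 10.65 in S113 clone 5 and 10.54, 10.52, 10.91 and 10.77 in SWT, with overlap between the arrays.

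Of 9 measured genes of translation, 7 were below SWT in S113 clone 5, and the 8 distal ones had a median of -0.21. Of 18 genes of protein turnover, the ER and the lysosome, 13 were below, and the 16 distal ones had a median of -0.32. *Abce1*, which recycles ribosomes, was the lowest of the translation genes at -0.64, and *Farsa*, a subunit of phenylalanyl-tRNA synthetase, was the highest at 0.47. *Dnajb1*, a cochaperone of HSP70, read 11.08 and 11.12 in S113 clone 5, 11.62 and 11.81 in S113 clone 4, and 11.65, 11.55, 11.57 and 11.48 in SWT, and no array of another line was as low. *Herpud1*, a gene of the ER stress response, went the other way with a difference of 0.52, and *Lamp1*, a lysosomal membrane protein of the proximal stretch, had 0.17. Of the 5 measured stress and immediate early genes all 5 were below SWT, with differences from -0.83 (*Mt2*, a metallothionein) to -0.04 (*Jund*). *Mt1*, the other metallothionein, read 13.45 and 13.46 in S113 clone 5 and 14.02, 14.04, 14.10 and 13.96 in SWT, and it was lower still in TSS, at 13.11 and 13.19.

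Of 14 measured factors of the early embryo and of cell identity, 12 were below SWT in S113 clone 5, and the 13 distal ones had a median of -0.36. *Thap11*, also known as Ronin and needed for ESC self-renewal, read 10.54 and 10.56 in S113 clone 5, 11.14 and 11.14 in S113 clone 4, and 10.86, 10.99, 11.03 and 10.90 in SWT. *Smad1*, which carries BMP signals to the nucleus, read 7.87 and 7.61 in S113 clone 5, 8.39 and 8.24 in S113 clone 4, and 8.81, 8.88, 8.82 and 8.95 in SWT. For both genes the arrays of S113 clone 5 lay below those of every other line. *Klf2*, a factor of naive pluripotency, was low in both S113 clones, at 9.94 and 9.82 in clone 5 and 9.91 and 9.94 in clone 4, against 11.13, 10.96, 11.02 and 11.08 in SWT. *Zfp42* (also called Rex1), 8 genes past the step, read 10.89 and 10.78 in S113 clone 5 and 10.78, 10.78, 11.31 and 11.30 in SWT, with overlap. Of 14 measured matrix, adhesion and vessel genes, 8 were below SWT in S113 clone 5, and the 9 distal ones had a median of -0.47. Over the 8 lists together, 78 of 88 distal genes were below SWT in S113 clone 5.

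**Figure D4:**
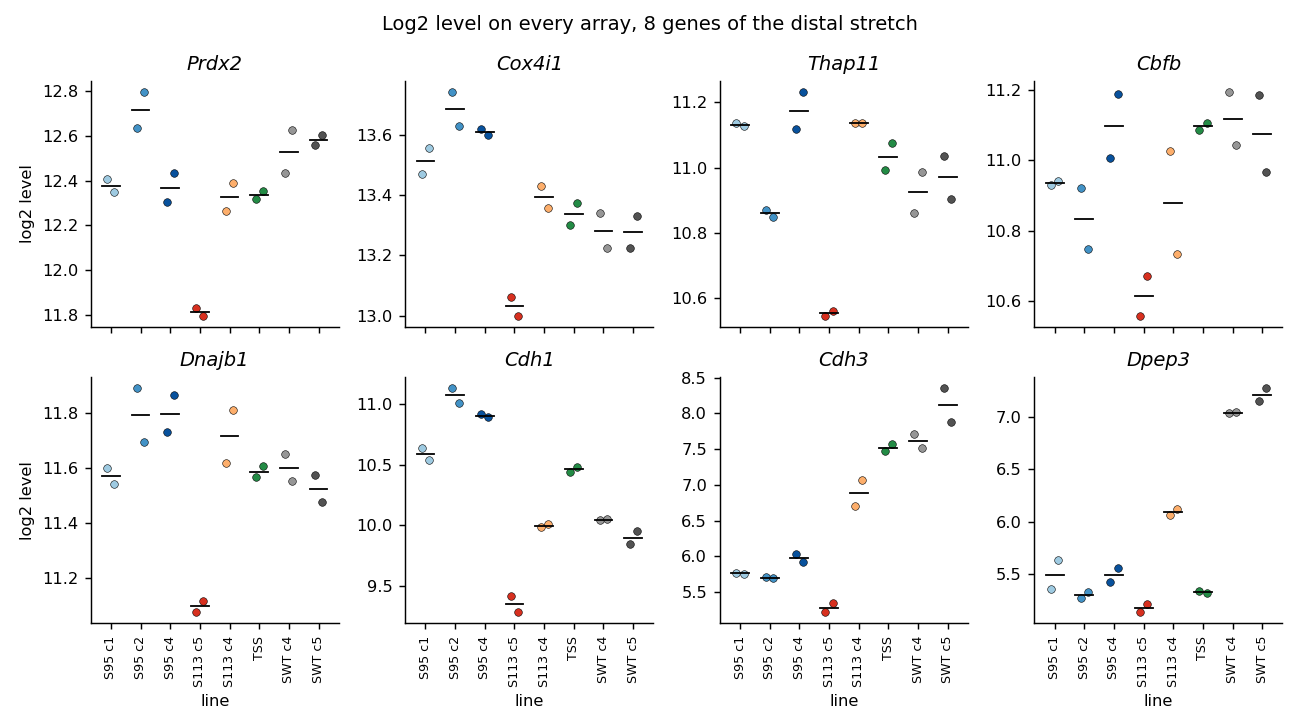
Log2 level (vertical axis, its range set for each gene) on both arrays of each line (points; the bar is their mean) for 8 genes of the distal stretch, with lines along the horizontal axis and SWT last. The red points of S113 clone 5 lie below those of every other line in all 8 genes. For *Prdx2* they lie at 11.83 and 11.80, against 12.43 to 12.63 in SWT. That order was found in 106 of the 511 measured genes of chromosome 8 (20.7%), so these 8 genes do not stand for the whole stretch. *Cdh3* and *Dpep3* were low in the S95 clones too.

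The largest differences of S113 clone 5 on the chromosome went beyond the general level of the distal stretch. The lowest was *Cdh3*, which encodes P-cadherin and read 5.23 and 5.34 in S113 clone 5, 6.71 and 7.07 in S113 clone 4, and 7.72, 7.52, 8.35 and 7.88 in SWT, a difference of -2.58 (0.17-fold). Its neighbour *Cdh1*, which encodes E-cadherin, read 9.42 and 9.28 in S113 clone 5, 9.99 and 10.01 in S113 clone 4, and 10.04, 10.05, 9.84 and 9.95 in SWT, a difference of -0.62. *Dpep3*, a membrane dipeptidase, followed with -1.95, *Cbln1*, a secreted synaptic organizer, with -1.71, and *Nanos3*, an RNA-binding protein of germ cells, with -1.52. *Nanos3* read 4.73 and 5.10 in S113 clone 5, 6.29 and 6.58 in S113 clone 4, and 5.72, 5.88, 7.05 and 7.10 in SWT. The others among the 8 lowest were *Ap3m2* (-1.62), *Kcnu1* (-1.46), *Ccdc113* (-1.45) and *Zmat4* (-1.42), and *Ap3m2*, *Kcnu1* and *Zmat4* are proximal. Most of these 8 were low in S113 clone 4 too, where the differences were -1.49 for *Ap3m2*, -1.06 for *Zmat4*, -1.04 for *Dpep3*, -0.98 for *Cdh3*, -0.91 for *Cbln1*, -0.89 for *Kcnu1*, -0.48 for *Ccdc113* and -0.00 for *Nanos3*. All 8 were low in S95 as well. The mean differences there were -3.55 for *Cbln1*, -2.05 for *Cdh3*, -1.94 for *Ccdc113* and -1.90 for *Ap3m2*. They were -1.70 for *Dpep3*, -1.53 for both *Zmat4* and *Nanos3*, and -1.32 for *Kcnu1*. In TSS the differences ran from -1.80 for *Dpep3* to -0.03 for *Nanos3*. *Zmat4* was detected on neither array of S113 clone 5 and on all 4 SWT arrays, and it was at least 2.36-fold lower, taking the lowest signal among detected probes of an array as the floor.

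The highest differences in S113 clone 5 were found in the proximal stretch. *Col4a1* and *Col4a2*, the chains of the main collagen of basement membranes, read 11.63 and 11.71, and 10.35 and 10.53, in S113 clone 5. In S113 clone 4 *Col4a1* read 9.38 and 9.49 and *Col4a2* read 8.02 and 8.23. In SWT *Col4a1* read 7.63, 7.58, 9.25 and 9.26 and *Col4a2* read 6.46, 6.38, 8.10 and 7.83, so the 2 SWT clones differed from each other as well. Both genes had a difference of 3.24 in S113 clone 5, and their windows are those printed above. *Nrg1*, a ligand of ERBB receptors, read 6.86 and 6.89 in S113 clone 5, and 4.38, 4.29, 5.06 and 4.46 in SWT, where 1 of 4 arrays detected it. *Dusp4*, a phosphatase that acts on ERK, had a difference of 1.96 and *Gas6*, a ligand of TAM receptors, of 1.71. The summed log2 level of 6 markers of extraembryonic endoderm was 57.66 in S113 clone 5, 48.24 in S113 clone 4, and 41.03 and 46.09 in the SWT clones, and it was 61.41 to 68.2 in the S95 clones. All 6 were detected on both arrays of S113 clone 5, *Gata4* on 8 of all 16 arrays, and their part in the level of the collagen genes was not tested. Distal genes among the 8 highest were *Acta1* (1.70), *Exoc3l* (1.07) and *Tppp3* (1.06), with differences of 1.74, 1.37 and 1.35 in S113 clone 4.

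In the S95 clones chromosome 8 as a whole was at the level of SWT, with a median difference of -0.00, and single genes moved both ways. In limma's fit over 9300 genes, 52 genes of chromosome 8 were higher in S95 than in SWT (10.2% of 511, where 11% of all genes were) and 47 were lower (9.2%, where 12.1% of all genes were). Of the proximal genes 8 were higher (7.4%) and 17 lower (15.7%), and of the distal genes 44 were higher (10.9%) and 30 lower (7.4%). The spread in this fit includes the difference of S113 clone 5 from S113 clone 4, which had a median of -0.41 over the distal genes. The calls there are therefore not independent of the values by which the chromosome was chosen. A median shift used instead of the quantile step put the median of S95 clones 1 and 4 at 0.15 on other chromosomes. More genes were then higher and fewer lower. The counts hung on the 2 SWT clones, and both fell when either was left out, where the lone SWT clone is assumed to vary like the other groups. Without S95 clone 2 more genes were higher, and without S95 clone 4 fewer were lower. The share called over all genes, both directions together, shifted too in 5 of the alternatives. It does not tell whether a change in 1 direction was shared by the other chromosomes. These changes in counts are not read as particular to chromosome 8.

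The largest rises were those of the collagen pair. *Col4a2* had a lowest, median and highest level of 11.24, 11.79 and 13.30 over the 6 S95 arrays, above every SWT array, and rose by 4.93 (SE 0.87, limma adjusted p = 0.0126). *Col4a1* had 12.23, 12.58 and 14.05 over the same arrays and rose by 4.52 (SE 0.84, limma adjusted p = 0.0148). Without SWT clone 4 the differences were 4.16 and 3.69 with adjusted p of 0.101 and 0.112 from limma, and without SWT clone 5 they were 5.70 and 5.35 with 0.0619 for both. *Acta1*, skeletal muscle actin, had 8.96, 9.64 and 10.62 over the S95 arrays, against 6.31, 6.10, 4.71 and 5.11 in SWT, where 3 of 4 arrays detected it. It rose by 4.18 (SE 0.50, limma adjusted p = 0.00467), and it was at 7.42 and 7.18 in S113 clone 4, and 7.19 and 7.26 in TSS, so each line lay above SWT. *Elmo3*, an engulfment and motility protein of epithelia, had 8.02, 8.39 and 9.02 over the S95 arrays, against 5.89, 6.07, 5.85 and 5.90 in SWT, a rise of 2.56 (SE 0.26, limma adjusted p = 0.00288). *Irf2*, an interferon regulatory factor, rose by 2.38 and *Gas6* by 2.34, both with an adjusted p of 0.023 from limma that was 0.143 and 0.136 without SWT clone 5, and 0.109 and 0.121 without SWT clone 4.

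The largest falls lay in the distal stretch. *Ttc29*, an axonemal protein of cilia and sperm tails, had a lowest, median and highest level of 4.76, 5.33 and 6.01 over the 6 S95 arrays, against 9.23, 9.44, 9.66 and 9.61 in SWT, and fell by 4.14 (SE 0.41, limma adjusted p = 0.00288). *Cbln1* fell by 3.55 (SE 0.33, limma adjusted p = 0.00247), and 3 of 6 S95 arrays detected it. *Vegfc*, a growth factor of lymphatic vessels, had 5.06, 5.33 and 5.51 over the S95 arrays, against 8.38, 8.25, 8.63 and 8.79 in SWT, and fell by 3.18 (SE 0.20, limma adjusted p = 0.000818). In S113 *Vegfc* read 9.15 and 9.22 in clone 4 and 8.77 and 8.84 in clone 5, both clones above the SWT mean. *Sap30*, a subunit of the SIN3 histone deacetylase complex, had 9.30, 10.19 and 10.68 over the S95 arrays, against 12.47, 12.69, 12.65 and 12.65 in SWT, and fell by 2.57 (SE 0.34, limma adjusted p = 0.0065). It was also below SWT in S113 clone 5, at 11.69 and 11.57, and in S113 clone 4, at 12.23 and 12.14. *Zfp42*, whose window holds an octamer, had 8.01, 9.40 and 9.50 over the S95 arrays, against 10.78, 10.78, 11.31 and 11.30 in SWT, and fell by 2.07 (SE 0.46, limma adjusted p = 0.0237). *Cdh3* fell by 2.05 (SE 0.44, limma adjusted p = 0.0218). Leaving out 1 SWT clone gave adjusted p of up to 0.15 for *Zfp42* and 0.143 for *Cdh3* (both without SWT clone 5), and of 0.0584 and 0.0619 for *Sap30* without SWT clone 4 and clone 5.

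**Figure D5:**
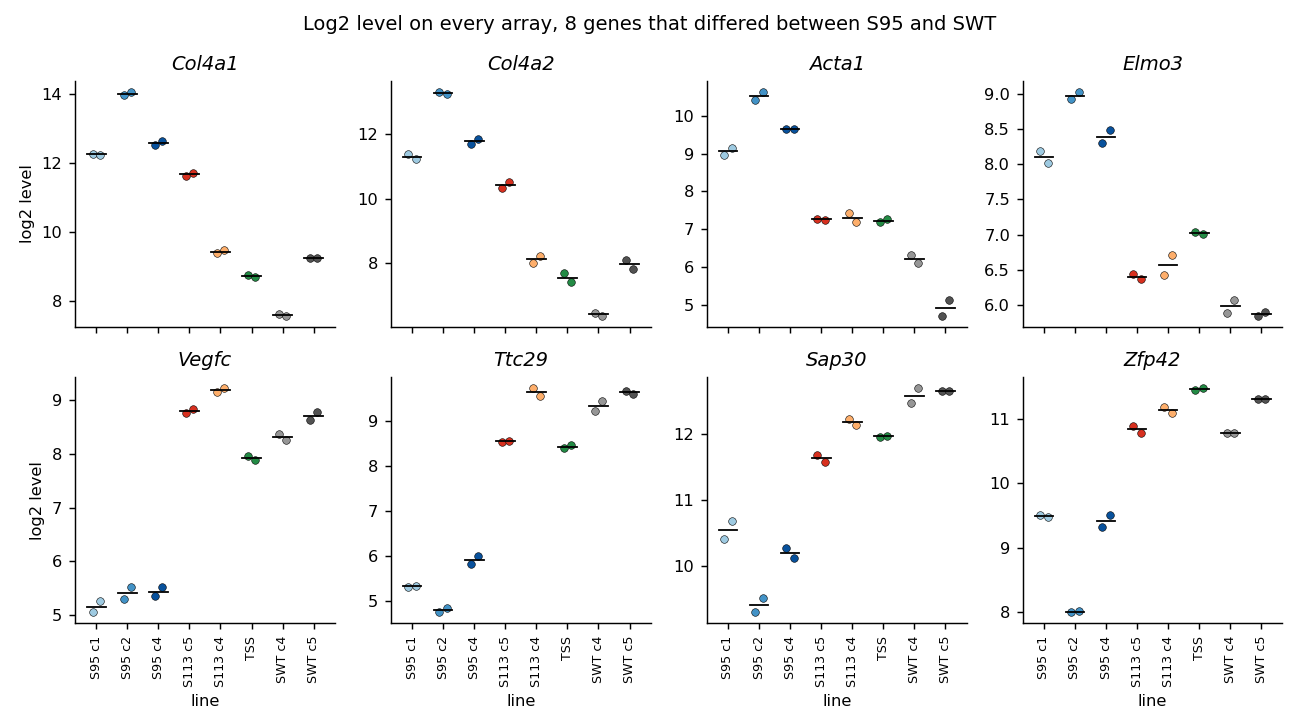
Log2 level (vertical axis, its range set for each gene) on both arrays of each line (points; the bar is their mean) for 8 genes that differed between S95 and SWT, with lines along the horizontal axis and SWT last. The blue points of S95 lie above the grey SWT points for *Col4a1*, *Col4a2*, *Acta1* and *Elmo3* and below them for *Vegfc*, *Ttc29*, *Sap30* and *Zfp42*. For *Vegfc*, S95 lies between 5.06 and 5.51 and SWT between 8.25 and 8.79.

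Of the 104 measured genes of the 8 lists, 9 were higher in S95 than in SWT (8.65%, where 11% of all genes were) and 8 were lower (7.69%, where 12.1% of all genes were). Of these 17 genes 1, *Vegfc*, also passed with each SWT clone left out, and the adjusted p of the other 16 from limma was then 0.0584 to 0.25. Of the 14 matrix, adhesion and vessel genes, 5 were higher and 3 lower, and the median difference was 0.12. *Cdh1* was among the higher ones, with 10.54, 10.91 and 11.13 over the S95 arrays (a rise of 0.88, SE 0.24, limma adjusted p = 0.0399), while *Cdh3* next to it fell, and without SWT clone 5 the adjusted p of *Cdh1* was 0.198. The others were *Efnb2* (1.11), an ephrin, and *Bcar1* (1.06), a focal adhesion scaffold, among the higher, and *Mmp2* (-1.31), a matrix protease, among the lower, all named after their values were seen. Of the 14 early embryo factors, 2 were lower, which were *Zfp42* and *Klf2* (a fall by 1.80, SE 0.33, limma adjusted p = 0.0145, 0.101 without SWT clone 5), and *Zfhx3* was higher by 0.85. Of the 13 chromatin and RNA genes, 2 were lower, *Sap30* and *Ash2l*, and the second rests on its brightest probe, since the mean of its probes gave a difference of -0.32 with an adjusted p of 0.188 from limma. Of the 15 replication and repair genes 1 was lower (*Tfdp1*, a fall by 0.82), of 18 genes of protein turnover 2 were higher (*Vps4a*, 0.58, and *Herpud1*, 1.03), and of 16 genes of mitochondria and metabolism 1 was higher (*Aprt*, 0.83). None of the 9 translation genes and none of the 5 stress genes passed limma's test. *Zmat4*, which no S95 array and all 4 SWT arrays detected, was at least 2.37-fold lower in S95 than in SWT (adjusted p = 0.00831 from limma, 0.0592 without SWT clone 5).

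Between TSS and SWT no gene of chromosome 8 passed limma's test in either direction (0% higher and 0% lower of all 9300 genes), and 35 of its 511 genes had an unadjusted p under 0.05. With arrays in place of line means and the line as a random block, limma called 1 gene higher and 3 lower on chromosome 8, and 83 genes over all chromosomes. The largest differences among the genes named here were those of *Dpep3* (-1.80, adjusted p = 0.32 from limma), *Cbln1* (-1.76, adjusted p = 0.37) and *Acta1* (1.67, adjusted p = 0.49). TSS is 1 line, so its own spread between clones was not measured.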

How the data were processed

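The authors deposited, for each array, scanner intensities of 25697 probes summarized with BeadStudio 3.2 (per the labels' processing notes) without normalization, each beside the detection p-value that the authors deposited. The authors also deposited log2 values, normalized with RMA and lumi named in the notes, which served as an alternative. The neqc function of limma 3.58.1 (R 4.3.3) removed background by means of the detection p-values, added an offset of 16, took log2 and made array quantiles equal. Of the probes, 23978 name a gene, and 23962 were found through their Entrez identifier in the RefSeq table (GRCm38.p6), used for names, chromosome and order only, since the files name no build. The 12668 probes that passed detection were reduced to the brightest for each of 9300 genes.

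The 2 arrays of a line were averaged. All 8 lines entered 1 limma fit (lmFit and eBayes, a mean per construct), two-sided, with a Benjamini-Hochberg adjusted p under 0.05 over all genes. The spread in that fit draws on S113 clone 5 too, the line by which the chromosome was chosen. Differences of S113 clone 5 are described and not tested, as is S113 against SWT, which holds that line. Floors for undetected probes were the lowest signal among detected probes of an array. The number of arrays limits the precision.

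Named genes were up to 5 members of each list by mean level, the 8 lowest and 8 highest genes of S113 clone 5 minus SWT, the 6 largest rises and 6 largest falls in S95 against SWT among genes past the test, and the first and last measured gene (*Arhgef18* and *2610044O15Rik8*, at -0.40 and -0.35 in S113 clone 5). Other names were chosen after their values were seen. The chromosome, the members and the lists were chosen with earlier results of these data known. Array numbers were not taken to pair lines. Deviations of first arrays correlated between lines with r of -0.193 to 0.22 (median 0.00348), and 4 of 28 pairs were over 0.1. Whether some arrays share a batch was not tested. The fit was tested on simulated data with 200 changed genes. The alternatives tried were other backgrounds, scalings, filters and probe summaries, array-level fits, eBayes with trend and robust, and leaving out each line.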

Additional observations from a re-analysis of the deposited data

Results flagged for a closer look

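*Vegfc* and *Ttc29* differed between the mutants by a test of the difference itself, in a fit that left out S113 clone 5, the line by which the chromosome was chosen. *Vegfc* averaged 5.33 in S95 (n = 3 clones) and 9.19 in S113 clone 4, a log2 difference of -3.85 (SE 0.241, limma adjusted p = 0.0325), and it was lower in 3 of 3 S95 clones. *Ttc29* averaged 5.35 in S95 and 9.64 in S113 clone 4, a difference of -4.29 (SE 0.434, limma adjusted p = 0.0329), also in 3 of 3 clones. S113 clone 4 is 1 line there and its spread was taken to be that of the other groups. In that fit 58 of 9300 genes passed, 3 of them on chromosome 8. No group held the 4 or more samples that a test for a sample far from the others needs.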

How the results depend on the processing

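The chromosome 8 median of S113 clone 5 (-0.29, and -0.37 over the distal genes) stayed below 0 under every alternative tried. The chromosome and distal medians were -0.37 and -0.42 in the deposited log2 values, -0.22 and -0.28 with a normexp background with offset 50, -0.37 and -0.42 with an RMA-style background without offset, -0.23 and -0.31 with a median shift used instead of the quantile step, -0.31 and -0.39 when arrays were centred on the genes outside chromosome 8, -0.10 and -0.17 with no detection filter, and -0.34 and -0.42 with detection p under 0.01 on all arrays. The mean of a gene's probes gave -0.38 over the distal genes. Leaving out an SWT clone or 1 array of S113 clone 5 gave -0.31 to -0.29 for the chromosome and -0.37 to -0.345 for the distal genes. In alternatives chosen after seeing the data, S113 clone 4 in place of SWT gave -0.35 and -0.41, and the 368 genes with an SWT level over 6 gave -0.38, or -0.43 for their 292 distal genes. Of the 5 other lines, the median farthest from 0 was -0.07 (TSS), with 0.22 under the median shift (S95 clone 4), -0.036 with no detection filter (TSS) and 0.046 without SWT clone 5 (S113 clone 4).

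For S95 against SWT the median shift gave 88 higher and 31 lower genes, against 52 and 47. Leaving out an S95 or S113 clone gave up to 88 higher and up to 64 lower, with 24 lower without S95 clone 4. Leaving out an SWT clone gave fewer in both directions. Arrays with the line as a random block and no replicate block gave 88 higher and 89 lower, and 1 and 3 for TSS against SWT. With a replicate block these were 88 and 88, and 1 and 3. All of these counts are of chromosome 8 genes, and the share called over all genes, both directions together, shifted too in 5 of the alternatives. That share does not tell whether a change in 1 direction was shared by the other chromosomes. Array numbers were not taken to pair the lines. Of 22 named genes past the test, 6 passed under every alternative that could be run (*Acta1*, *Ap3m2*, *Cbln1*, *Elmo3*, *Ttc29* and *Vegfc*), 9 lost it only when a line was left out, and none changed direction. The cause of these changes was not tested.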
